A study of Mus musculus with 19 samples.

Results

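The 10 genes described here encode the actin filament and proteins that build, cut and link it: the actins Actb and Actg1, the monomer-binding proteins Pfn1 and Tmsb4x, the Arp2/3 complex subunits Arpc2, Arpc1b and Arpc3, the disassembly factors Cfl1 and Coro1a, and the crosslinker Flna. They are 10 of the 50854 genes in the count table, and all 10 were found and passed the filter on low counts. They were chosen because Pfn1 and Arpc2 were lower and Flna was higher in inflamed libraries, so the inflamed against resting values below are the values that chose them and are given as a description without a test. Monocytes were sorted from the bone marrow of female REP mice, 8 to 12 wk old, in which each inflammatory chemokine receptor is marked by its own fluorescent reporter. There were 4 libraries of resting CCR1/2+ve monocytes (CCR1 and CCR2 on the same cell), 4 of resting CCR2+ve monocytes (CCR2 only), 3 of inflamed CCR1/2+ve monocytes, 4 of inflamed CCR2+ve monocytes and 4 labelled inflamed CCR1. Inflamed mice carried a subcutaneous osmotic pump that infused IL-3, IL-6, GM-CSF and IFN-α for 7 d. A group with a vehicle pump is not analysed here, so the pump and its cytokines cannot be told apart. Days of sorting and library preparation are not given in the sources used here. A difference of day between resting and inflamed libraries therefore cannot be told apart from inflammation. The labels number the replicates without naming the mice, so p-values measure the spread between these libraries.

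Actin monomers join into filaments at one end and leave at the other. Profilin 1 (Pfn1) loads monomers for addition at the growing end, and thymosin beta 4 (Tmsb4x) holds monomers in reserve. The Arp2/3 complex starts new branches on the side of existing filaments, cofilin 1 (Cfl1) severs old filaments, coronin 1A (Coro1a) works with Arp2/3 and cofilin in leukocytes, and filamin A (Flna) ties filaments together and to membrane proteins. In monocytes this network drives crawling, adhesion and phagocytosis.

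The upstream sequences shown are those of Pfn1 and Flna, the 2 members with the widest separation between resting and inflamed libraries, and of Actg1. Among the members searched, Actg1 was the 1 whose window held the motif described below. Its level also differed between conditions, as did that of other members whose sequences are not shown. The stretches shown come from the RefSeq promoter table (GRCm38.p6) and start 250 bases before the transcription start. They stop at that start or, where an exon of the gene itself in GENCODE M21 comes first, just before that exon. Letters are 5′ to 3′ on the strand of the gene, and capitals mark a CArG box, the motif to which serum response factor (SRF) binds. The Pfn1 stretch is chr11:70654651-70654900 (minus strand) and overlaps exons of the neighbouring gene model Gm12319, the Flna stretch is chrX:74246556-74246784 (minus strand) inside the longer annotated Flna gene, and the Actg1 stretch is chr11:120348543-120348745 (minus strand), whose upstream end overlaps an exon of the neighbouring gene 0610009L18Rik.
Pfn1: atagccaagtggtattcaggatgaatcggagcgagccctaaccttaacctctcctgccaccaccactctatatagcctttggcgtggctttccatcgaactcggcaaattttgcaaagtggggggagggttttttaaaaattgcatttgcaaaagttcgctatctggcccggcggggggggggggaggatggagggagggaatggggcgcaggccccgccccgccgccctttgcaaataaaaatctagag
Flna: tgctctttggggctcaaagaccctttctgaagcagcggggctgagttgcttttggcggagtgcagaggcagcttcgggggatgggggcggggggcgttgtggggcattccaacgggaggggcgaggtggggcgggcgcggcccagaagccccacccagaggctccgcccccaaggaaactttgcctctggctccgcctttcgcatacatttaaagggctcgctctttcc
Actg1: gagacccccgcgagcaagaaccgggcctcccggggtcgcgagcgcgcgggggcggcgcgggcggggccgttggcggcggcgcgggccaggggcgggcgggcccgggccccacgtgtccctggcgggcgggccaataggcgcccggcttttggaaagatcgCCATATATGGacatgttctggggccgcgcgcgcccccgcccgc
Actb had no entry in the promoter table and was not searched. Of the 9 members with an entry, Actg1 held the motif, with its first base 90 bases before the start (-90), and the windows of the other 8 did not hold these letters. The search ran over both strands of the 300 bases from 250 before to 50 after each start, and 535 of all 32851 windows (1.63%) held a match.

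Total counts per library ran from 22268658 to 30502009 (median 23706580), and the fewest reads of any member in any library were 2052 (Pfn1, inflamed CCR1/2+ve), so counting error is small beside the spread between libraries. The 10 monocyte markers summed to between 32371 and 59735 CPM (counts scaled to library size with TMM factors) in the CCR1/2+ve and CCR2+ve libraries, all 10 above 10 CPM. The libraries labelled inflamed CCR1 went against the monocyte label in part. There 7 of 10 monocyte markers were above 10 CPM. The 10 summed to 10382 to 15682 CPM, of which Lyz2 (mean 8278 CPM) was the largest part. Mean Ccr2 was 5.82 CPM and Csf1r 17.7 CPM, and Fcgr1, Ms4a6c, F13a1 and Cd14 were also far below their inflamed CCR2+ve means. Others stayed near: mean Cybb was 2865 CPM against 2400 CPM in inflamed CCR2+ve libraries, and Itgam 91.8 against 114 CPM. Ly6c2 ran from 1366 to 1484 CPM, within the inflamed CCR2+ve range of 1246 to 2097 CPM. In the inflamed CCR1 libraries 10 neutrophil markers, 9 of them above 10 CPM, summed to 104410 to 152990 CPM, against 598 to 3189 CPM in the other 15 libraries. Among those 15 the neutrophil sum separated the populations, at 2447 to 3126 CPM in resting CCR1/2+ve against 598 to 909 CPM in resting CCR2+ve libraries, and at 2529 to 3189 CPM against 1242 to 1594 CPM in inflamed ones. The neutrophil markers did not move together. At rest mean S100a8 was 1770 CPM in CCR1/2+ve against 156 CPM in CCR2+ve libraries, but Mmp8 (451 against 548 CPM), Ngp, Ltf and Retnlg had lower means in CCR1/2+ve. Mmp8 made up most of both inflamed sums (means 1606 and 1045 CPM) and was at 9.10 CPM in the inflamed CCR1 libraries. The monocyte sum separated the populations at rest, at 32371 to 45343 CPM in CCR1/2+ve against 47768 to 54976 CPM in CCR2+ve libraries. The sort gate of the libraries labelled inflamed CCR1 is not given in the sources used here, and they are called inflamed CCR1 libraries below. The 6 erythroid markers summed to 50.7 to 248 CPM in resting libraries and 0.723 to 3.95 CPM in inflamed ones. The 8 tissue macrophage markers summed to 225 to 386 CPM in resting and 510 to 1189 CPM in inflamed libraries, but did not move together. Mean Adgre1 went from 184 to 586 CPM in CCR1/2+ve and from 314 to 538 CPM in CCR2+ve monocytes, whereas C1qa, C1qb, C1qc, Vcam1, Slc40a1 and Cd5l had lower means in inflamed than in resting CCR1/2+ve monocytes (Vcam1 26.2 and 2.16 CPM at rest and inflamed). In CCR2+ve monocytes C1qa, C1qb, C1qc and Slc40a1 had higher means when inflamed (C1qb 3.86 and 13.3 CPM at rest and inflamed), and Vcam1 and Cd5l lower ones. Mean Mrc1 was higher when inflamed in both, from 9.13 to 18.2 CPM in CCR1/2+ve and from 17.1 to 48.6 CPM in CCR2+ve monocytes. In the inflamed CCR1 libraries Vcam1 (464 CPM) and Slc40a1 (538 CPM) made up most of the sum. Of the T and NK cell markers (6 genes) 1, Nkg7, made up nearly the whole sum, with a mean of 1562 CPM in the inflamed CCR1 libraries and 2.49 to 48.4 CPM in the other groups, while the other 5 had means below 1 CPM in every group. The B cell markers (5 genes) summed to between 18.0 and 41.9 CPM and the platelet markers (7 genes) to at most 5.82 CPM in any library, with 2 platelet markers at 0 in the resting CCR1/2+ve, inflamed CCR1/2+ve and inflamed CCR2+ve groups. These marker sums moved with the groups compared below, and their part in the differences of the actin genes was not tested. In bulk libraries, a change in the mix of sorted cells and a change in RNA per cell cannot be told apart.

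The 10 genes together held a median of 3.77% of counts in both resting groups, 4.28% in inflamed CCR1/2+ve, 4.71% in inflamed CCR2+ve and 3.06% in inflamed CCR1 libraries. Inflamed CCR1/2+ve and CCR2+ve libraries had less profilin, thymosin and Arpc2 RNA and more RNA of both actins, Arpc1b, Coro1a and Flna, while Arpc3 differed little. In each population 7 members had a positive and 3 a negative log2 fold change, and the groups did not overlap for 8 (CCR2+ve) and 9 (CCR1/2+ve) members, where 46.1% and 50.4% of all genes tested did not overlap. Across all genes tested, edgeR called 22.1% higher and 26.2% lower in inflamed CCR2+ve monocytes, and 20.7% higher and 25.6% lower in inflamed CCR1/2+ve monocytes; since the members were chosen on this contrast, nothing is read from their counts. The median log2 fold change of the members was 0.37 for CCR2+ve cells and 0.51 for CCR1/2+ve cells, against -0.11 and -0.27 for all genes tested.

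**Figure D1:**
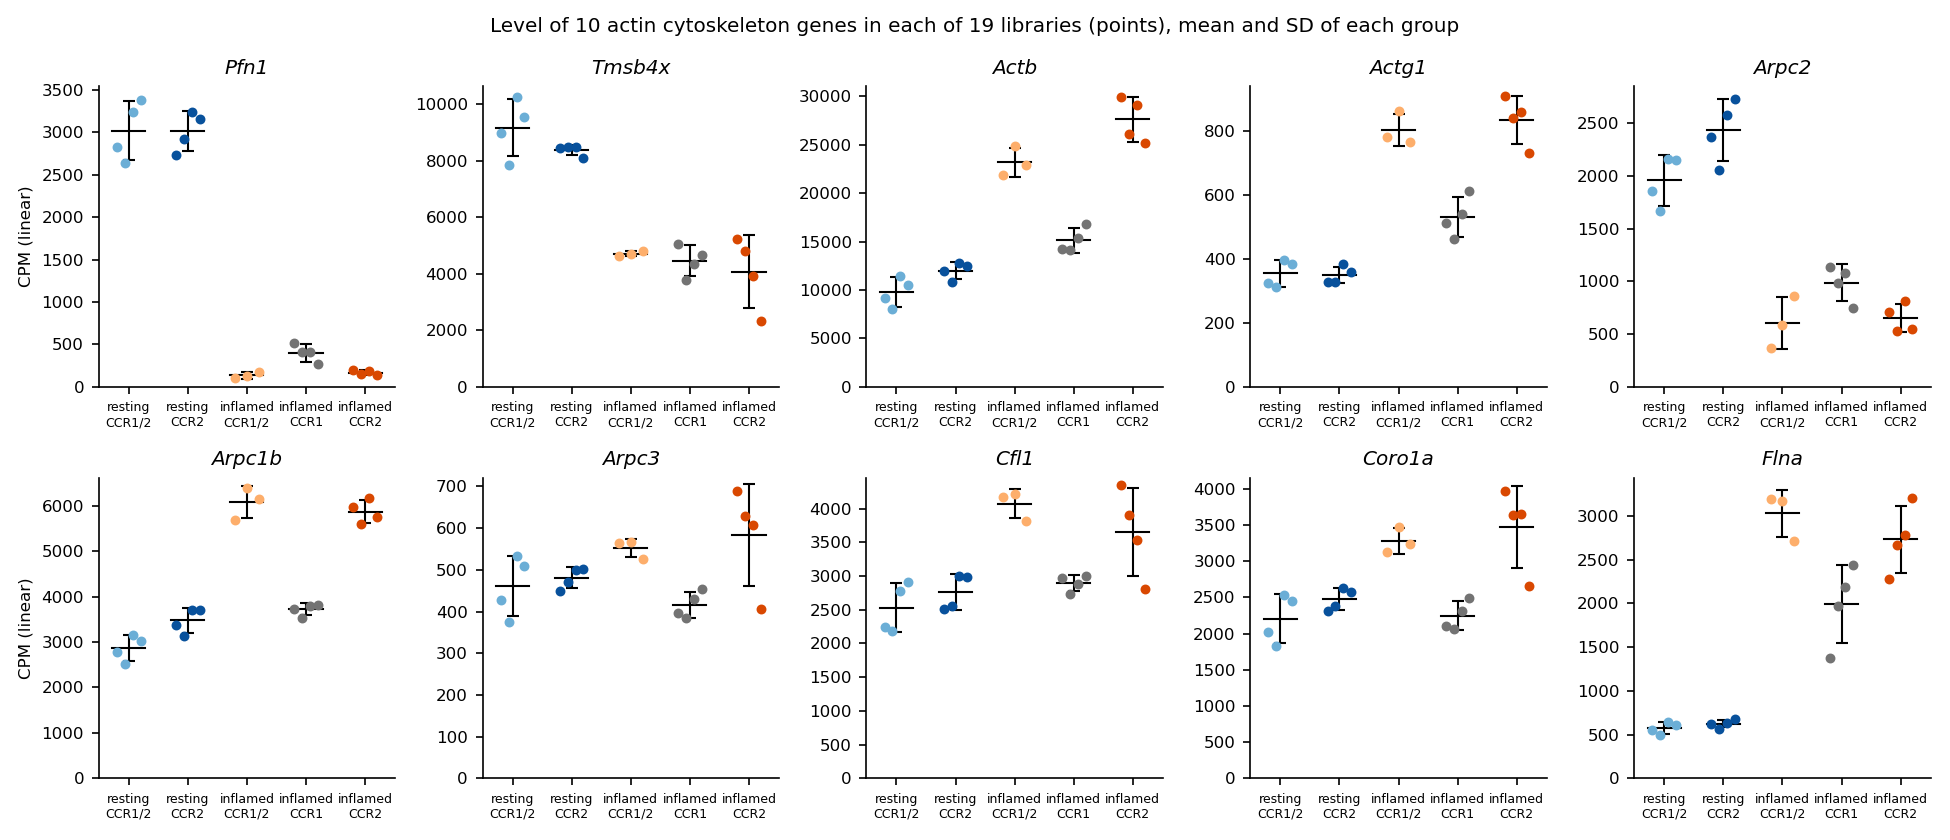
CPM (linear axis from 0, one panel per gene) of the 10 actin cytoskeleton genes in each of the 19 libraries (points), with the mean (line) and SD (bar) of each group on the horizontal axis. Pfn1 runs from 2632 to 3381 CPM in resting and from 99.5 to 515 CPM in inflamed libraries, and Flna from 490 to 673 and from 1381 to 3209 CPM.

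Pfn1 (chr11:70651850-70654644, minus strand; coordinates here are GRCm38, GENCODE M21) had the widest separation. Its level was 2831, 2632, 3238 and 3381 CPM in the resting CCR1/2+ve libraries and 2732, 2925, 3239 and 3161 CPM in the resting CCR2+ve libraries. After inflammation the CCR1/2+ve libraries held 99.5, 132 and 177 CPM, the CCR2+ve libraries 196, 148, 185 and 135 CPM and the inflamed CCR1 libraries 515, 407, 409 and 264 CPM. Every inflamed library lay below every resting one, and the inflamed CCR1 libraries lay above the other inflamed libraries. Inflamed CCR2+ve monocytes had 19.1-fold less Pfn1 RNA (log2 fold change -4.25, SE 0.14), and inflamed CCR1/2+ve monocytes 24.1-fold less (-4.59, SE 0.21). None of the 50-base words of the Pfn1 transcript occurred in another annotated transcript.

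Tmsb4x (chrX:167207093-167209315, minus strand), the monomer-sequestering partner, moved the same way by less. It stood at 8971, 7867, 10251 and 9555 CPM in resting CCR1/2+ve and at 8467, 8492, 8478 and 8099 CPM in resting CCR2+ve libraries. The inflamed CCR1/2+ve libraries held 4631, 4691 and 4805 CPM, the inflamed CCR2+ve libraries 5246, 4820, 3909 and 2341 CPM and the inflamed CCR1 libraries 5064, 3790, 4360 and 4665 CPM. Resting and inflamed libraries did not overlap, and the 3 inflamed groups overlapped each other. On the log2 scale the inflamed minus resting difference was -1.12 (SE 0.18) for CCR2+ve monocytes and -1.09 (SE 0.08) for CCR1/2+ve.

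The actins themselves moved in the other direction. Actb (chr5:142903115-142906754, minus strand), encoding beta-actin, was at 9146, 8052, 11482 and 10530 CPM in resting CCR1/2+ve and at 12006, 10809, 12805 and 12435 CPM in resting CCR2+ve libraries. It was at 21924, 24871 and 22869 CPM in inflamed CCR1/2+ve, 29984, 26168, 29166 and 25216 CPM in inflamed CCR2+ve and 14260, 14097, 15337 and 16811 CPM in inflamed CCR1 libraries. Inflamed CCR1 libraries thus sat between the resting and the other inflamed libraries, with no overlap on either side. Inflamed minus resting gave 1.13 (SE 0.09) for CCR2+ve and 1.12 (SE 0.10) for CCR1/2+ve cells on the log2 scale.

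Actg1 (chr11:120345690-120348542, minus strand), encoding gamma-actin, had the same order of levels from resting through inflamed CCR1 to the other inflamed libraries, at a lower count. Its mean was 354 ± 42.6 CPM (SD, n = 4) in resting CCR1/2+ve, 349 ± 26.4 (n = 4) in resting CCR2+ve, 530 ± 63.0 (n = 4) in inflamed CCR1, 802 ± 50.7 (n = 3) in inflamed CCR1/2+ve and 834 ± 75.2 (n = 4) in inflamed CCR2+ve libraries. CCR2+ve monocytes differed by 1.19 on the log2 scale (SE 0.10) and CCR1/2+ve monocytes by 1.05 (SE 0.09). Of the 50-base words of the Actg1 transcript 55.9% also occurred in another gene, most of them in the processed pseudogene Gm12715, against 14.2% for Actb. The authors discarded reads that aligned to more than 1 place, so the Actg1 level may be understated, and Gm12715 itself held 5725 reads over the 19 libraries.

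Subunits of the Arp2/3 complex did not move together. Arpc2 (chr1:74236084-74268209, plus strand), which with Arpc4 forms the core that holds the complex on the mother filament, was at 1852, 1666, 2156 and 2153 CPM in resting CCR1/2+ve and at 2367, 2059, 2576 and 2734 CPM in resting CCR2+ve libraries. It was at 368, 590 and 860 CPM in inflamed CCR1/2+ve, 710, 529, 810 and 552 CPM in inflamed CCR2+ve and 1137, 984, 1084 and 748 CPM in inflamed CCR1 libraries. Every inflamed library lay below every resting one, and the inflamed CCR1/2+ve libraries spread over the whole range of the CCR2+ve ones. On the log2 scale the inflamed minus resting difference was -1.97 (SE 0.14) for CCR2+ve monocytes and -1.81 (SE 0.26) for CCR1/2+ve.

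Arpc1b (chr5:145114215-145130705, plus strand), the WD-repeat subunit that prevails in blood cells, was higher instead, with means of 2868 ± 288 CPM (SD, n = 4) in resting CCR1/2+ve, 3477 ± 281 (n = 4) in resting CCR2+ve, 6071 ± 352 (n = 3) in inflamed CCR1/2+ve, 5868 ± 248 (n = 4) in inflamed CCR2+ve and 3721 ± 129 (n = 4) in inflamed CCR1 libraries. Inflamed minus resting gave 0.69 (SE 0.09) for CCR2+ve and 0.96 (SE 0.08) for CCR1/2+ve cells on the log2 scale. Arpc3 (chr5:122391878-122414184, plus strand), a small peripheral subunit, showed log2 fold changes of 0.20 (SE 0.13) and 0.14 (SE 0.10), and its resting and inflamed libraries overlapped, from 376 to 533 CPM against 407 to 688 CPM in the CCR1/2+ve and CCR2+ve libraries. The sign for Arpc3 in CCR1/2+ve monocytes turned to -0.06 when libraries were scaled by their totals alone. Exons of Pdap1 on the other strand overlap 18.2% of Arpc1b exonic bases and the strand of counting is not recorded, so reads of the pair cannot be told apart there.

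Both disassembly factors were somewhat higher in inflamed monocytes. Cfl1 (chr19:5490455-5495201, plus strand) ran from 2189 to 2904 CPM in resting CCR1/2+ve and from 3820 to 4212 CPM in inflamed CCR1/2+ve libraries, without overlap. In CCR2+ve monocytes it ran from 2506 to 2997 CPM at rest and from 2811 to 4351 CPM when inflamed, with overlap through inflamed replicate 4. CCR2+ve monocytes differed by 0.33 on the log2 scale (SE 0.12) and CCR1/2+ve monocytes by 0.56 (SE 0.09). Snx32, on the other strand, overlaps 16.5% of Cfl1 exonic bases.

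Coro1a (chr7:126699773-126707787, minus strand) ran from 1823 to 2535 CPM and from 3121 to 3474 CPM in resting and inflamed CCR1/2+ve libraries. In CCR2+ve libraries it ran from 2317 to 2629 CPM at rest and from 2660 to 3966 CPM when inflamed, so neither population overlapped. On the log2 scale the inflamed minus resting difference was 0.42 (SE 0.11) for CCR2+ve monocytes and 0.45 (SE 0.10) for CCR1/2+ve.

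Flna (chrX:74223461-74249820, minus strand) was the member with the largest positive difference. It stood at 558, 490, 644 and 608 CPM in resting CCR1/2+ve and at 624, 569, 636 and 673 CPM in resting CCR2+ve libraries. It stood at 3194, 3174 and 2718 CPM in inflamed CCR1/2+ve, 2279, 2672, 2776 and 3209 CPM in inflamed CCR2+ve and 1381, 1968, 2183 and 2434 CPM in inflamed CCR1 libraries. No inflamed library reached down to a resting one. Inflamed CCR2+ve monocytes had 4.17-fold more Flna RNA (log2 fold change 2.06, SE 0.12), and inflamed CCR1/2+ve monocytes 4.82-fold more (2.27, SE 0.09). No 50-base word of the Flna transcript was shared with another gene.

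Expressed per length, the ranking of the members changed between conditions. As CPM per kilobase of the shortest or longest coding transcript, Tmsb4x led in resting CCR2+ve monocytes with 9703 to 12011, above Actb with 6257 to 9673. In inflamed CCR2+ve monocytes Actb led with 14392 to 22249, and Tmsb4x stood at 4721 to 5844. Flna, whose transcript is the longest of the 10, had the lowest level per kilobase at rest (74.0 to 75.3 in CCR2+ve), and Pfn1 the lowest in inflamed CCR2+ve monocytes (193 to 273, against 323 to 329 for Flna).

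**Figure D2:**
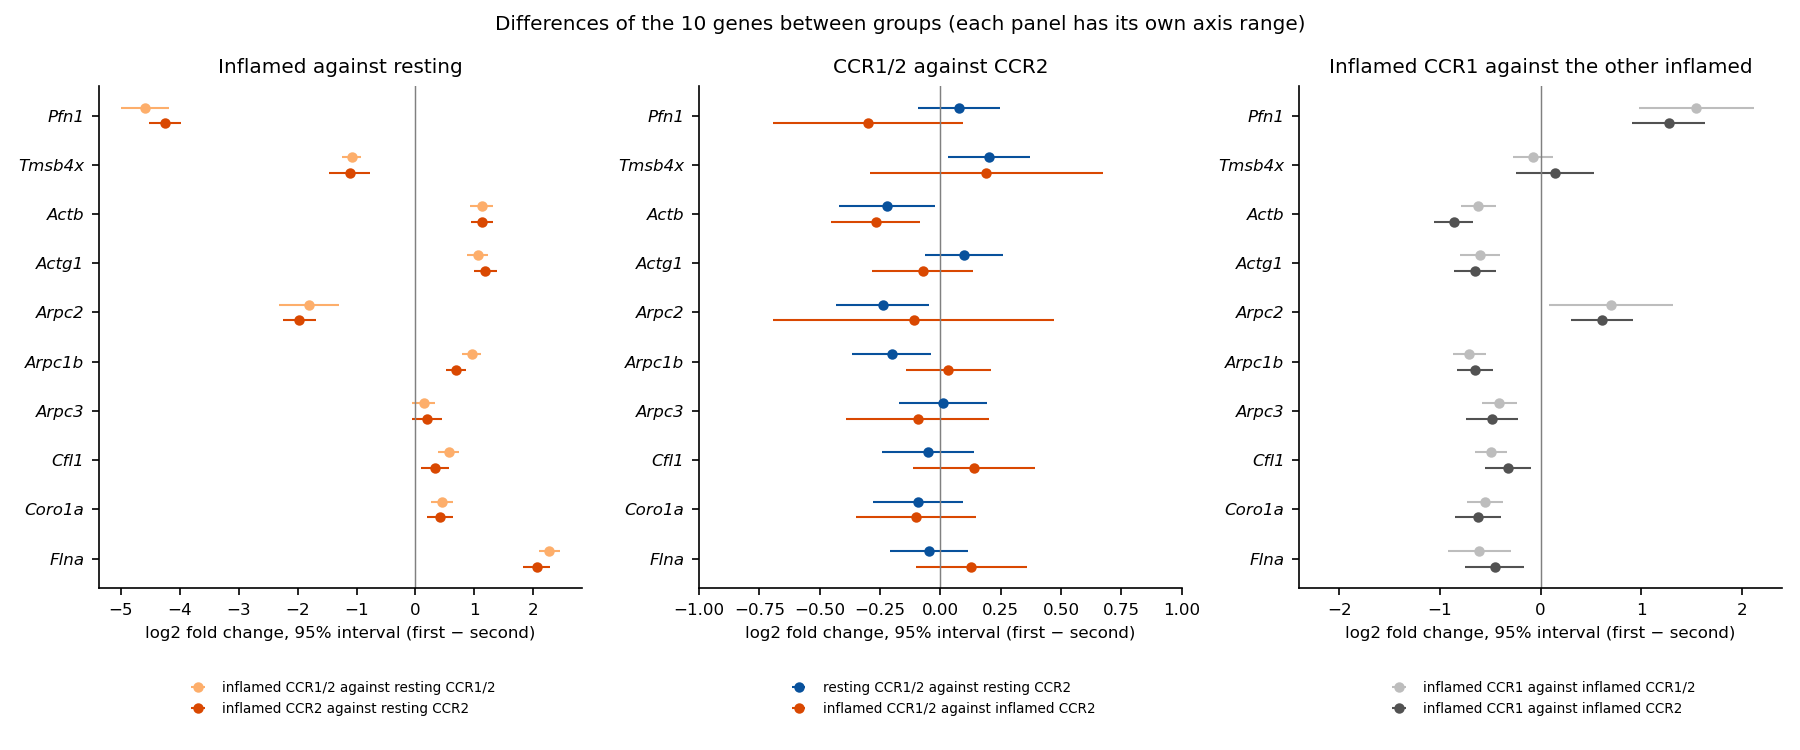
Log2 fold change (first minus second group, horizontal axis) of each of the 10 genes (rows) in 6 comparisons, with bars of the 95% interval from the edgeR standard error. Pfn1 lies at -4.59 and -4.25 in the left panel, which shows the values the genes were chosen on, and the 10 genes lie between -0.30 and 0.20 in the middle panel.

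At rest, log2 differences between the CCR1/2+ve and CCR2+ve populations lay between -0.24 and 0.20 in all 10 genes. The choice of members did not use this contrast. How many were called depended on the pairing of libraries by replicate number, with 0 of 10 called without it and 4 of 10 with it. Without the pairing, edgeR's quasi-likelihood test called 0 of 10 members at an adjusted p below 0.05, and 3 members had an unadjusted p below 0.05. Of all genes, 8.51% were called higher and 8.52% lower in CCR1/2+ve monocytes. The groups overlapped for all 10, where 20.3% of all genes did not overlap. The largest differences were Arpc2 (log2 fold change -0.24, SE 0.10, edgeR adjusted p = 0.121), Actb (-0.22, SE 0.10, adjusted p = 0.170), Arpc1b (-0.20, SE 0.08, adjusted p = 0.127) and Tmsb4x (0.20, SE 0.09, adjusted p = 0.138). The 95% intervals of all 10 (from the edgeR SE, normal approximation) lay between -0.43 and 0.37. Replicate numbers paired these libraries, and with the number as a block edgeR called 4 of 10: Tmsb4x higher (0.20, adjusted p = 0.0120), and Actb (-0.23, adjusted p = 0.00182), Arpc2 (-0.24, adjusted p = 0.000607) and Arpc1b (-0.20, adjusted p = 0.00176) lower in CCR1/2+ve monocytes. Under the block 12.5% of all genes were called higher and 13.4% lower. DESeq2 without the block called 3 members, and leaving out replicate 2 of either group gave 1.

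After inflammation, edgeR called 0 of 10 members between the CCR1/2+ve and CCR2+ve monocytes, against 0.126% of all genes higher and 0.0656% lower, 1 member (Actb) had an unadjusted p below 0.05, and DESeq2 called 0. Actb, the 1 member without overlap (all genes: 9.91%), was lower in all 3 CCR1/2+ve than in all 4 CCR2+ve libraries, with a log2 fold change of -0.27 (SE 0.09, edgeR adjusted p = 0.394). The 95% intervals of the 10 lay between -0.69 and 0.67, the widest being those of Arpc2 and Tmsb4x. The change with inflammation was then compared between the populations as an interaction. Of the 10 members 0 were called by edgeR (0 at an unadjusted p below 0.05, 0 by DESeq2), against 0.242% of all genes higher and 0.156% lower, with differences from -0.39 (Pfn1, SE 0.21, adjusted p = 0.464) to 0.23 (Arpc1b, SE 0.12, adjusted p = 0.450).

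The reads of the 2 actins were also compared as a ratio within each library. There were 28.2, 25.8, 28.9 and 27.4 Actb reads per Actg1 read in resting CCR1/2+ve libraries and 36.6, 32.9, 33.4 and 34.8 in resting CCR2+ve libraries. All CCR1/2+ve libraries lay below all CCR2+ve libraries, with a log2 difference of -0.32 (exact permutation over the 8 libraries, two-sided, p = 0.0286, the lowest value 4 against 4 can give, and 0.0571 after adjustment over the 2 ratios tested). In inflamed libraries the ratio was 28.1, 28.9 and 29.9 in CCR1/2+ve and 33.0, 31.2, 34.0 and 34.5 in CCR2+ve, again without overlap (log2 difference -0.20, two-sided exact permutation p = 0.0571, adjusted 0.0571, smallest possible 0.0286). The inflamed CCR1 libraries had 27.5 to 30.6 reads, near the CCR1/2+ve values (25.8 to 29.9) and below every CCR2+ve library. Neither difference passed 0.05 after adjustment. With the 4 resting pairs kept together, the exact sign-flip test gave p = 0.125, the smallest it allows. The sum of neutrophil markers separated the same groups in both comparisons, and the sum of monocyte markers at rest (above), and their part in the ratio was not tested.

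**Figure D3:**
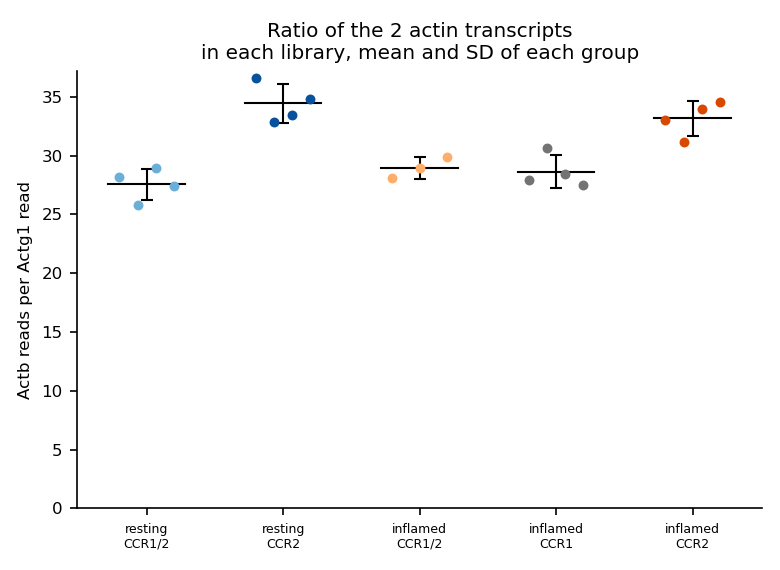
Actb reads per Actg1 read (vertical axis from 0) in each library (points), with the mean (line) and SD (bar) of each group on the horizontal axis. The 7 CCR1/2+ve libraries sit between 25.8 and 29.9 and the 8 CCR2+ve libraries between 31.2 and 36.6.

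The inflamed CCR1 libraries differed from the other inflamed libraries in most of the 10 genes, by calls without a fold cutoff. The shares of all genes set beside the members, here and in the other comparisons, were not matched to them for expression level. Against inflamed CCR2+ve monocytes edgeR called 2 members higher and 7 lower in inflamed CCR1, where 23% of all genes were called higher and 25.6% lower, and 5 members did not overlap (all genes: 45.8%). This fit did not use the pairing by replicate number, and the replicate block changed none of these calls. Pfn1 was higher (log2 fold change 1.27, SE 0.19, 2.42-fold, edgeR adjusted p = 5.9e-05) in 4 of 4 libraries, and Arpc2 was higher with overlapping groups (0.61, SE 0.16, adjusted p = 0.00421). Actb (-0.86, SE 0.10, adjusted p = 1.4e-06), Arpc1b (-0.65, SE 0.09, adjusted p = 1.1e-05), Actg1 (-0.65, SE 0.11, adjusted p = 6.6e-05) and Coro1a (-0.63, SE 0.12, adjusted p = 0.000255) were lower in every library. Arpc3 (-0.48, SE 0.13), Flna (-0.46, SE 0.15) and Cfl1 (-0.33, SE 0.12) were lower with overlap, at edgeR adjusted p of 0.00593, 0.0199 and 0.0281. The calls of Flna and Cfl1 rested on single libraries: Flna was not called without inflamed CCR1 replicate 1 or 2 or inflamed CCR2+ve replicate 4, nor Cfl1 without inflamed CCR1 replicate 2 or 3 or inflamed CCR2+ve replicate 1 or 2, with edgeR adjusted p up to 0.0683 and 0.0953. Tmsb4x was not called (0.14, 95% interval -0.25 to 0.53, edgeR adjusted p = 0.595).

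Against inflamed CCR1/2+ve monocytes, a comparison that shares the 4 inflamed CCR1 libraries with the last, 1 member was called higher and 7 lower, where 20.5% of all genes were higher and 23.3% lower, and 8 did not overlap (all genes: 48%). Pfn1 was 2.93-fold higher (log2 fold change 1.55, SE 0.29, edgeR adjusted p = 0.00425), with no overlap, and was not called with the replicate number as a block (1.46, edgeR adjusted p = 0.0656), although the numbers did not pair these libraries. Arpc1b (-0.71, SE 0.08), Actb (-0.62, SE 0.09), Flna (-0.61, SE 0.16), Actg1 (-0.60, SE 0.10), Coro1a (-0.55, SE 0.09), Cfl1 (-0.49, SE 0.08) and Arpc3 (-0.41, SE 0.09) were lower with no overlap, at edgeR adjusted p from 8.9e-06 to 0.0100. Arpc2 was not called (0.70, SE 0.31, edgeR adjusted p = 0.125), but without inflamed CCR1/2+ve replicate 4 its difference was 1.05 and called (adjusted p = 0.00738). Tmsb4x differed by -0.08 (95% interval -0.27 to 0.12). With a log2 fold change of at least 1 required as well, 1 member, Pfn1, was called in each of these comparisons, where 31.6% and 28.1% of all genes were. The sum of neutrophil markers moved with both comparisons (above), and its part in them was not tested.

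A wider list of 127 actin regulators, chosen by role with earlier results of these data known, was read beside the members. Of these, 123 were in the table and 116 were tested. The shares of all genes given beside them were not matched to the list for expression level. In CCR2+ve monocytes 77 of the 116 were called by edgeR, 54 higher and 23 lower with inflammation (all genes: 22.1% and 26.2%), and the median log2 fold change of the 116 was 0.27 (all genes: -0.11). In CCR1/2+ve monocytes 73 were called, 53 higher and 20 lower (all genes: 20.7% and 25.6%), with a median of 0.40 (all genes: -0.27), and scaling by library totals alone gave 46 higher and 28 lower. The counts by role below have these shares of all genes as their background. The same 44 genes were called higher in both populations and 18 lower in both. With a log2 fold change of at least 1 required, 30 and 37 were called, where 28.8% and 28.7% of all genes were.

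**Figure D4:**
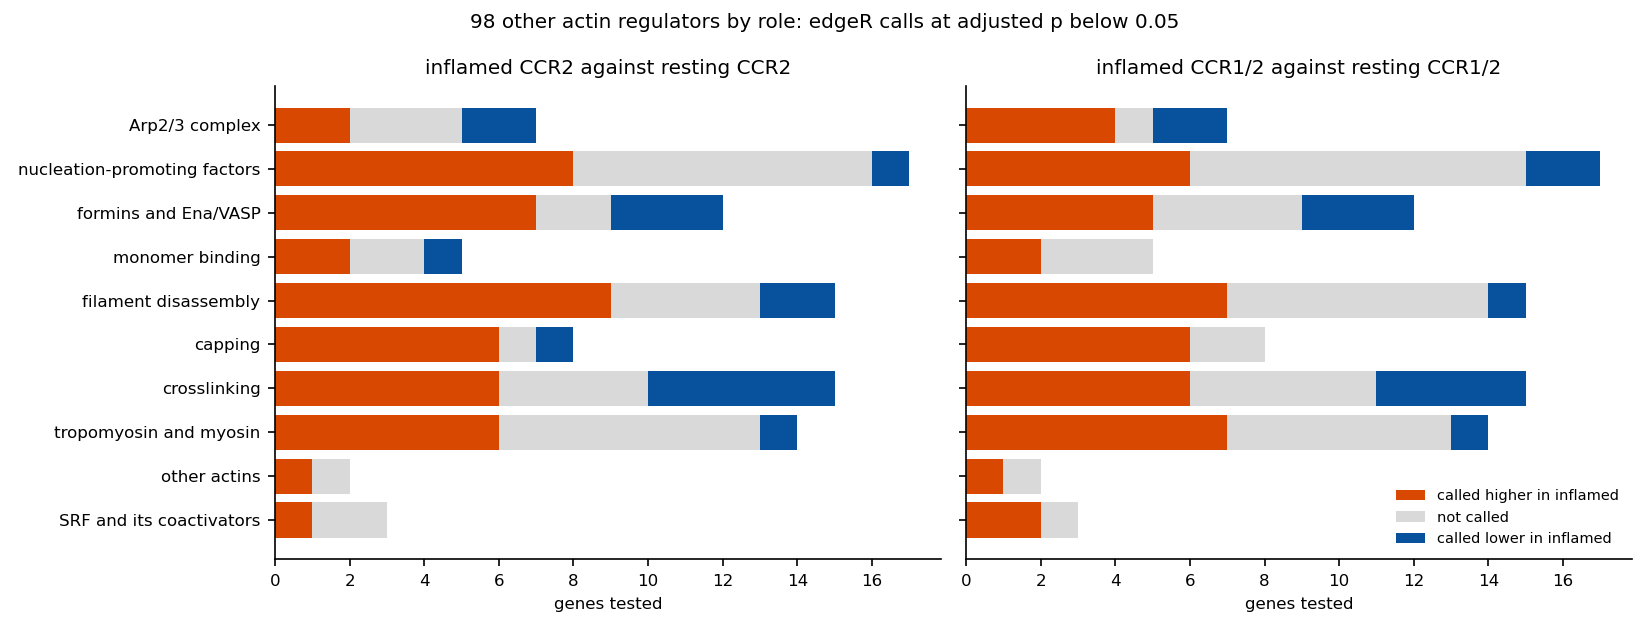
Number of genes of the wider list tested (horizontal axis) by role (rows, 1 role not shown) in CCR2+ve (left) and CCR1/2+ve (right) monocytes, split into those edgeR called higher in inflamed libraries, not called and called lower. Capping proteins lie mostly on the higher side (6 of 8 in each), and among the roles shown crosslinkers hold the most genes called lower (5 and 4 of 15).

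Among the monomer-binding relatives of Pfn1 and Tmsb4x, 2 of 5 were called higher in each population and 1 and 0 lower. Cap1, which recycles monomers from cofilin, went from 162 ± 5.22 CPM (SD, n = 4) in resting to 752 ± 54.3 (n = 4) in inflamed CCR2+ve monocytes, up by 2.15 on the log2 scale (SE 0.10), and rose by 2.22 (SE 0.11) in CCR1/2+ve cells. Tmsb10, the close relative of Tmsb4x, was singled out after its values were seen, and rose by 0.42 (SE 0.13) and 0.61 (SE 0.09) on the log2 scale. Pfn2, singled out likewise, was at 0.822 CPM in resting and 0.687 CPM in inflamed CCR2+ve monocytes, far below Pfn1 in the same groups.

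Of 7 other Arp2/3 subunit genes, CCR2+ve monocytes had 2 called higher and 2 lower, and CCR1/2+ve monocytes 4 and 2. Arpc4, the partner of Arpc2 in the core, rose by 0.47 (SE 0.09) and 0.69 (SE 0.09) on the log2 scale, and Arpc1a, the alternative to Arpc1b, by 0.62 (SE 0.09) in both. Arpc5l, an alternative to Arpc5, fell by 0.72 (SE 0.11) and 1.02 (SE 0.32). Of 17 regulators of the complex and their partners, not all of which switch it on, 8 and 6 rose and 1 and 2 fell. Hcls1, the leukocyte cortactin relative, rose by 1.13 (SE 0.11) and 1.48 (SE 0.10), and Wasl, N-WASP, fell by 2.61 (SE 0.20) and 2.35 (SE 0.20). Cyfip1, a subunit of the WAVE regulatory complex, rose by 0.78 (SE 0.10) in CCR2+ve and 1.52 (SE 0.09) in CCR1/2+ve monocytes. It was the 1 gene of the 116 that edgeR called in the interaction (all genes: 0.242% higher and 0.156% lower).

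Among formins and Ena/VASP proteins, which extend unbranched filaments, 7 and 5 of 12 rose and 3 fell in each population. Fhod1 rose by 1.60 (SE 0.18) and 1.14 (SE 0.30), Evl by 0.82 (SE 0.12) and 1.12 (SE 0.15), and Fmnl1 fell by 0.79 (SE 0.16) and 0.82 (SE 0.11). Of 15 disassembly factors and genes that regulate them in either direction, 9 and 7 rose and 2 and 1 fell. Cotl1, coactosin-like protein, rose by 1.95 (SE 0.12) and 1.87 (SE 0.14), Coro7 by 1.92 (SE 0.12) and 1.87 (SE 0.11), and Cfl2, the muscle-type cofilin, fell by 1.97 (SE 0.18) and 1.67 (SE 0.19). The capping protein genes Eps8 (2.34, SE 0.15, and 3.21, SE 0.14) and Capza1 (0.95, SE 0.10, and 1.24, SE 0.08) rose in both.

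Of crosslinkers, the class of Flna, 6 of 15 (40%) were called higher in each population and 5 and 4 (33.3% and 26.7%) lower, the latter near the 26.2% and 25.6% of all genes. Lasp1 rose by 1.88 (SE 0.10) and 1.75 (SE 0.11) on the log2 scale and Msn, moesin, which ties filaments to the membrane, by 1.02 (SE 0.10) and 1.52 (SE 0.09). Cnn3, a calponin, fell from 17.5 ± 4.97 CPM to 0.346 ± 0.298 CPM (SD, n = 4 each) in CCR2+ve monocytes, and Marcksl1 from 72.1 ± 21.2 to 4.84 ± 1.39 CPM (SD, n = 4 each). Of 14 tropomyosin and myosin genes 6 and 7 rose and 1 fell in each population: Myh9, the non-muscle myosin II heavy chain, rose by 2.91 (SE 0.13) and 2.45 (SE 0.10), Myo1f by 1.21 (SE 0.12) and 1.71 (SE 0.08), and Tpm1 fell by 2.49 (SE 0.16) and 2.50 (SE 0.18). Of 2 other actin genes tested Acta2 rose, by 1.18 (SE 0.15) and 1.64 (SE 0.17). Of SRF and its coactivators (3 genes) 1 and 2 were called higher and 0 lower.

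Within groups, some members varied together from library to library, which the choice of members did not use. After each group's mean was removed, Pearson's r of log2 CPM over the 19 libraries was 0.97 for Arpc3 and Coro1a, 0.92 for Arpc3 and Cfl1, 0.90 for Actb and Actg1 and 0.90 for Pfn1 and Arpc2. For Pfn1 and Flna it was -0.57 within groups (0.79 within the resting and -0.80 within the inflamed groups) and -0.99 over the 19 libraries with the group differences kept. Within the resting groups every pair of members correlated positively, from 0.57 (Tmsb4x and Arpc2) to 0.99 (Arpc3 and Coro1a). Within-group correlations between genes outside the members were not computed. These correlations are descriptions over libraries that share their depth and scaling. Inflamed CCR2+ve replicate 4 was the lowest of its group for Pfn1, Tmsb4x, Actb, Actg1, Arpc3, Cfl1 and Coro1a and the highest for Flna. Without it, the inflamed against resting log2 fold change in CCR2+ve monocytes was -0.93 for Tmsb4x, 0.33 for Arpc3, 0.43 for Cfl1 and 0.52 for Coro1a, and -4.18 for Pfn1 and 1.96 for Flna.

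The genes whose log2 CPM followed Pfn1 most closely over the 19 libraries, among 7675 genes compared, were Ostf1 (r = 0.998), Sirt7 (0.997), Mrps15 (0.996), Uck1 (0.996) and Pias4 (0.995). Those closest to Flna were Emc1 (r = 0.994), Bak1 (0.993), Ogdh (0.992), Pcsk7 (0.991) and Arhgap1 (0.991). These correlations include the step between resting and inflamed libraries on which Pfn1 and Flna were chosen.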

How the data were processed

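RNA-seq reads of 19 libraries were processed by the authors with fastp and STAR (2.7.10a) against GRCm38 with Ensembl release 91, with multi-mapping reads dropped and a minimum of 35 matched bases. The authors deposited raw counts per gene, without normalization. Of 20 count columns 1 matched no sample record and was not used. Groups came from the sample titles. The members and all lists were chosen with earlier results of these data known. Genes averaging 1 read or more per library entered (18652), and each comparison left out those without a read in its own libraries. Each pair of groups was fitted with edgeR 4.0.16 in R 4.3.3 (TMM, robust quasi-likelihood F test, two-sided, Benjamini-Hochberg over all genes tested). A gene was called at an adjusted p below 0.05 with no fold cutoff, while the study used DESeq2 and an absolute log2 cutoff of 1, both run as alternatives. Levels are CPM with TMM factors over the 19 libraries. The interaction was fitted over the 4 CCR1/2+ve and CCR2+ve groups. Other alternatives were DESeq2 1.42.0, RLE factors, library totals, other low-count filters, 1 fit of all libraries, a replicate block and leaving out each library. Correlation of same-numbered libraries' deviations from their group means, over 7685 genes, was 0.306 to 0.611 in the 4 resting pairs and 0.134 to 0.247 in the 4 pairs of inflamed CCR1 and CCR2+ve libraries. The numbers were therefore taken to pair these libraries. In the other comparisons not every pair passed 0.1. The main fits did not use the pairing, which entered through the replicate block as an alternative. All libraries of a group differed beyond sampling noise. The scripts were tested on simulated data.

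Named genes were the 10 members, and of each role of the wider list those called in both inflamed against resting comparisons in the same direction without overlap and with at least 10 CPM in 1 group, up to 2 a direction by size in CCR2+ve monocytes. One role of that list, counted in its totals, is not reported here by itself. For likeness, 5 genes each were named for Pfn1 and Flna among those with a mean of at least 10 CPM. Levels per kilobase used coding transcripts of GENCODE M21, and 50-base words of each member's principal transcript were sought in all other transcripts.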

Additional observations from a re-analysis of the deposited data

Results flagged for a closer look

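Over 40 tests of a member's level in a group of 4 libraries, the Tmsb4x level of resting CCR2+ve replicate 4, at 8098.5 CPM, stood apart from the other 3 libraries of its group, which lay between 8466.8 and 8491.9 CPM. Chance sets such a sample apart in about 1 of 20 groups.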

How the results depend on the processing

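Between the resting populations the main fit, without the pairing, called 0 members. Library totals and DESeq2 gave 3 each, filterByExpr and 1 fit of all 19 libraries 1 each, the replicate block 4, and leaving out 1 library 0 to 1. The cause was not tested. With a log2 fold change of at least 1 required, the members called in the inflamed CCR1 comparisons went from 9 and 8 to 1 and 1 and the wider list from 77 and 73 to 30 and 37, since the added cutoff leaves fewer. With the replicate block the Actb to Actg1 difference at rest stayed at -0.32 (exact p = 0.125, the smallest 4 pairs allow). Numbers did not pair the inflamed CCR1 and CCR1/2+ve libraries; the block there gave 7 members, Pfn1 at adjusted p = 0.0656. The block changed no other call of a member, and DESeq2 called Arpc2 there (adjusted p = 0.0188).

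Sign changes all concerned differences that were not called or had no test. Library totals turned Cfl1 (0.0053) and Flna (0.011) at rest and Arpc3 with inflammation in CCR1/2+ve monocytes (-0.057). The replicate block turned Arpc3 between inflamed CCR1/2+ve and CCR2+ve (0.019) and, in the interaction, Tmsb4x (0.19), Arpc3 (0.00802) and Coro1a (0.072). DESeq2 and RLE factors each turned 3 interaction terms, Tmsb4x (0.045), Actb (0.0029) and Coro1a (0.044). Leaving out 1 library gave ranges across 0: at rest Arpc3 -0.052 to 0.087 and Flna -0.094 to 0.0092; between inflamed CCR1/2+ve and CCR2+ve Tmsb4x -0.00049 to 0.33, Arpc2 -0.44 to 0.15 and Arpc1b -0.011 to 0.088; between inflamed CCR1 and CCR2+ve Tmsb4x -0.044 to 0.28; and in the interaction Tmsb4x -0.20 to 0.13, Actb -0.12 to 0.026, Arpc2 -0.23 to 0.38 and Coro1a -0.11 to 0.062. Causes were not tested.

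Library totals moved the median of all genes by -0.20 in inflamed against resting CCR1/2+ve monocytes, and the calls over all genes from 3846 higher and 4751 lower to 2999 and 5648. One fit of all 19 libraries moved that median by 0.13 and that of the interaction by 0.10. Over all genes, edgeR called 23 higher and 12 lower between inflamed CCR1/2+ve and CCR2+ve and 45 and 29 in the interaction, against 141 and 124 and 371 and 163 with DESeq2 and 150 and 85 and 336 and 138 with the block, and the block raised the resting calls from 1575 and 1576 to 2319 and 2480. Depth does not limit these abundant genes, but 3 or 4 libraries a group and shared Actg1 sequence do.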
